A study of Mus musculus with 25 samples.

Results

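The genes described here are 35 genes of NF-kB signalling, inflammatory cytokines and the interferon response, taken by symbol from a list, with no threshold on a measured value. All 35 occur among the 24421 genes of each of the authors' 4 deposited comparison tables. The tables come from stranded mRNA sequencing of whole hypothalamus of wild-type C57BL/6J mice aged 3 months. The maternal groups are offspring of dams fed the hypercaloric diet HCD, which is rich in sucrose with 52% fat, and offspring of dams on regular chow (RD), the dams having been on the diet for 1 month before mating and through pregnancy and lactation. Pups were weaned onto HCD or RD, and below male offspring are called sons and female offspring daughters (males and females in the plots).

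The 4 tables each set offspring of HCD dams against offspring of RD dams within one sex and one weaning diet. In HCD-weaned sons these are 3 HCD-HCD samples and 3 RD-HCD samples, and in HCD-weaned daughters likewise 3 and 3. In RD-weaned daughters they are 3 HCD-RD samples and 3 RD-RD samples. In RD-weaned sons the labels list 3 HCD-RD samples and 4 RD-RD samples, while the files hold 6 columns of single libraries, so which of the 7 entered the authors' fit is not known. Only a mean over both maternal groups, a fold change, its standard error (SE) and a p-value could be used for each gene, because no column of a single library carries a name that a label explains. Values of single animals are therefore not given, and the labels do not state whether littermates were used, so a p-value reflects only how these samples vary. A positive log2 fold change is taken to mean a higher level in the offspring of HCD dams. The labels call the RD-dam group the control for HCD-weaned offspring, while for RD-weaned offspring they only name the pair of groups. Neither states the direction of the fold change, so the sign could be turned for a whole table. The reading has less ground in RD-weaned offspring.

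NF-kB is a family of transcription factor dimers held in the cytoplasm by IkB proteins. Tumour necrosis factor, interleukin-1 and microbial ligands of Toll-like receptors act through adaptor proteins on the IkB kinase, which marks IkB for destruction and frees the dimers to switch on cytokine, chemokine and adhesion genes. Type I interferon acts through transcription factors such as STAT2 and IRF9, which bind the interferon-stimulated response element in front of antiviral genes. In the hypothalamus, IkB kinase and NF-kB in neurons and glia have been studied as a link between dietary fat and resistance to leptin and insulin.

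The sex labels matched the tables. Xist, the RNA of the inactive X chromosome, had a mean normalized count of 3893 and 5611 in the authors' deposited tables of females, and of 3.33 and 0.447 in those of males. The Y-linked gene Ddx3y stood at 0.159 and 0.194 in the tables of females and at 1054 and 493 in those of males. Some hypothalamic genes were present throughout, Pmch with a mean of 1793 to 7048 and the transcription factor gene Nkx2-1 with 60.3 to 80.9 in the authors' deposited tables. Others were low in RD-weaned sons. Oxt had 1199 in RD-weaned daughters but 13.9 in RD-weaned sons, and Avp 803 and 56.7. Agrp (1.54), Fezf1 (2.95) and Sim1 (4.59) lay under 10 in RD-weaned sons, where 9 of 15 hypothalamic markers were tested. Genes of neighbouring tissue were present as well, with a mean of 4530 to 6312 for the thalamic gene Prkcd and 77690 to 116200 for the choroid plexus gene Ttr in the authors' deposited tables. Region markers moved with maternal diet in some of the authors' deposited tables. Of 15 hypothalamic markers 13 were negative in HCD-weaned sons, with a median log2 fold change of -0.97. There 5 were called, among them Oxt (-2.27) and Pmch (-1.93), against 0.163% of all tested genes. With 0 called, 8 of 12 tested were negative in HCD-weaned daughters (median -0.13), 8 of 9 in RD-weaned sons (-0.22) and 13 of 14 in RD-weaned daughters (-0.31). Of 7 thalamic markers, 7 were positive in RD-weaned sons (median 0.51) and 6 negative in RD-weaned daughters (-0.26), with 0 called. In each HCD-weaned sex 4 of the 7 were positive. Of these, 1 was called in HCD-weaned daughters, against 1.52% of all tested genes, and 0 in HCD-weaned sons. In RD-weaned daughters all 6 choroid plexus markers were positive, with a median of 0.76 and 2 called, against 0.346% of all tested genes. All 7 markers of cortex and hippocampus were positive there too, with a median of 0.94 and 0 called. The part of neighbouring tissue in the values below was not tested. In whole tissue, fewer cells of a type and less RNA per cell cannot be told apart.

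In none of the 4 comparisons did a gene of the set pass the test, set at 0.05 on the adjusted p of the authors' deposited DESeq tables. In HCD-weaned sons 0 of 30 tested genes passed, against a background of 0.163% of all tested genes, and in HCD-weaned daughters 0 of 29 against 1.52%. In RD-weaned sons 0 of 25 passed against 0.0851%, and in RD-weaned daughters 0 of 31 against 0.346%. With shares that low, a set of this size would hold few calls if it behaved like the rest of the table, so the count is read beside a looser one. At an unadjusted p under 0.05 in the authors' deposited tables the set again held 0 genes in HCD-weaned sons, HCD-weaned daughters and RD-weaned sons, where 8.14%, 13.3% and 4.30% of all tested genes had such a p. In RD-weaned daughters it held 1, Cxcl10, where the share of all tested genes was 6.16%. The smallest adjusted p within the set was 0.562, that of Il1r1 in HCD-weaned daughters, in the authors' deposited tables.

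The median log2 fold change of the tested genes of the set was 0.01 in HCD-weaned sons, 0.13 in HCD-weaned daughters, 0.04 in RD-weaned sons and -0.03 in RD-weaned daughters, from the authors' deposited tables. Over all tested genes the median was -0.01 in HCD-weaned sons, 0.04 in HCD-weaned daughters, 0.00 in RD-weaned sons and 0.01 in RD-weaned daughters. Genes above and below 0 numbered 15 and 15 in HCD-weaned sons, 18 and 11 in HCD-weaned daughters, 13 and 12 in RD-weaned sons and 13 and 18 in RD-weaned daughters. The set as a whole was thus split in sign in every comparison.

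**Figure D1:**
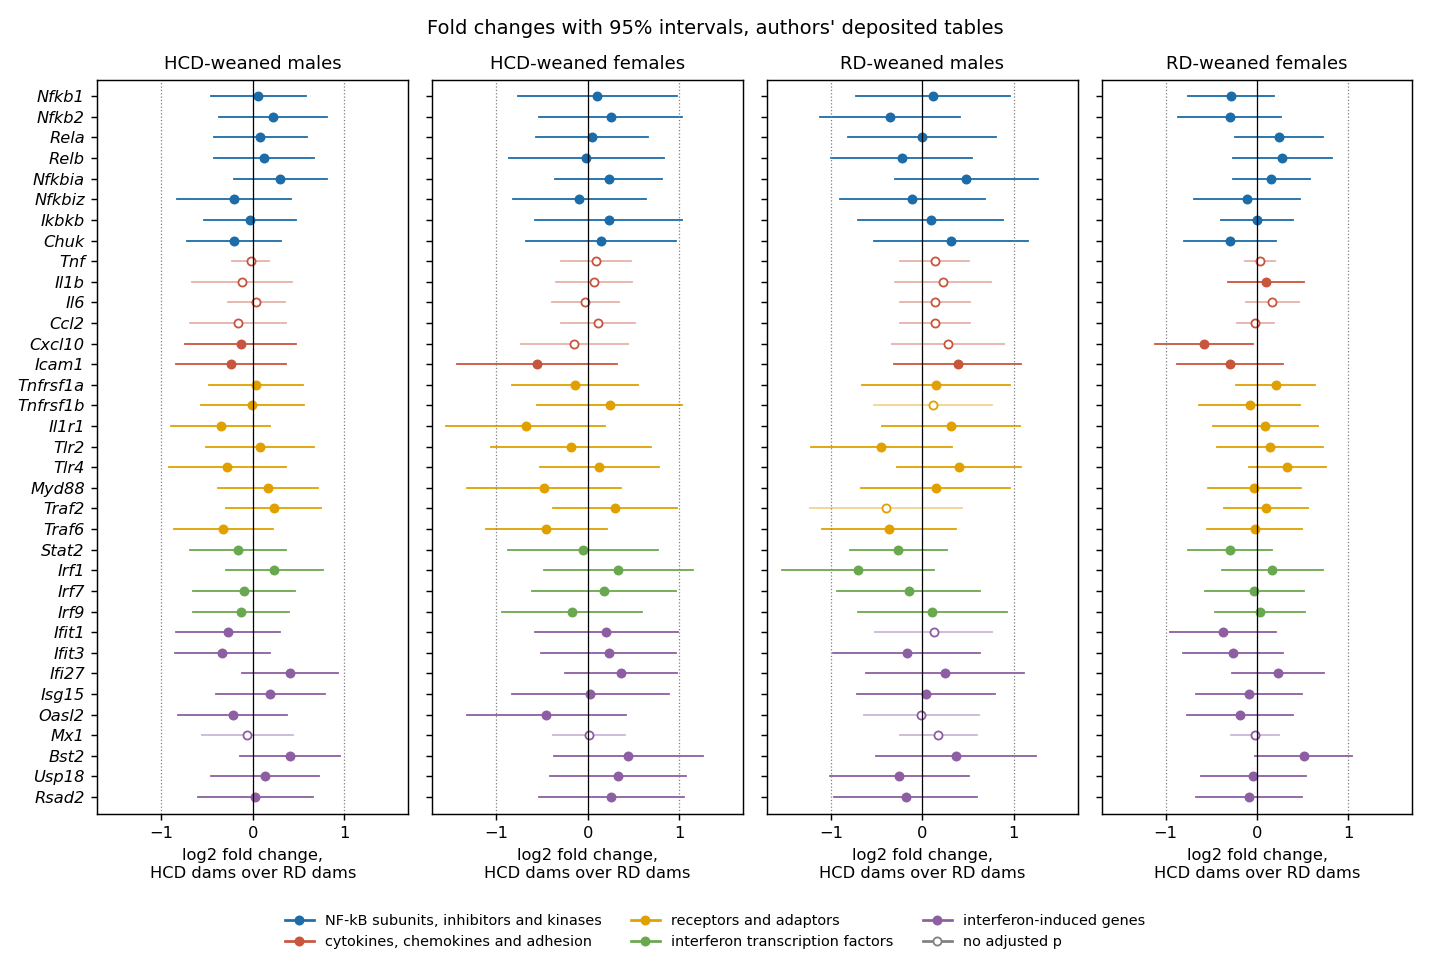
Log2 fold change of each of the 35 genes (points) in the 4 comparisons, offspring of HCD dams over offspring of RD dams, with 95% intervals (lines) from the authors' deposited tables and colours for the role of the gene. Dotted lines mark 1 and -1, open points have no adjusted p, and the interval of 1 filled point, Cxcl10 in RD-weaned daughters, stays on one side of 0.

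Which of the genes were expressed at all differed sharply by role. A mean normalized count of at least 10, below which the authors' deposited tables give no adjusted p, was reached by 29 of the 35 genes in all 4 tables. Tnf, Il6, Ccl2 and Mx1 reached it in 0 tables, Il1b in 1 and Cxcl10 in 2. To compare genes with each other, the mean normalized count was divided by exon length and scaled to a sum of 1000000 per table, here called the level per kb. The tables were normalized separately, so levels are set across tables as a description.

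**Figure D2:**
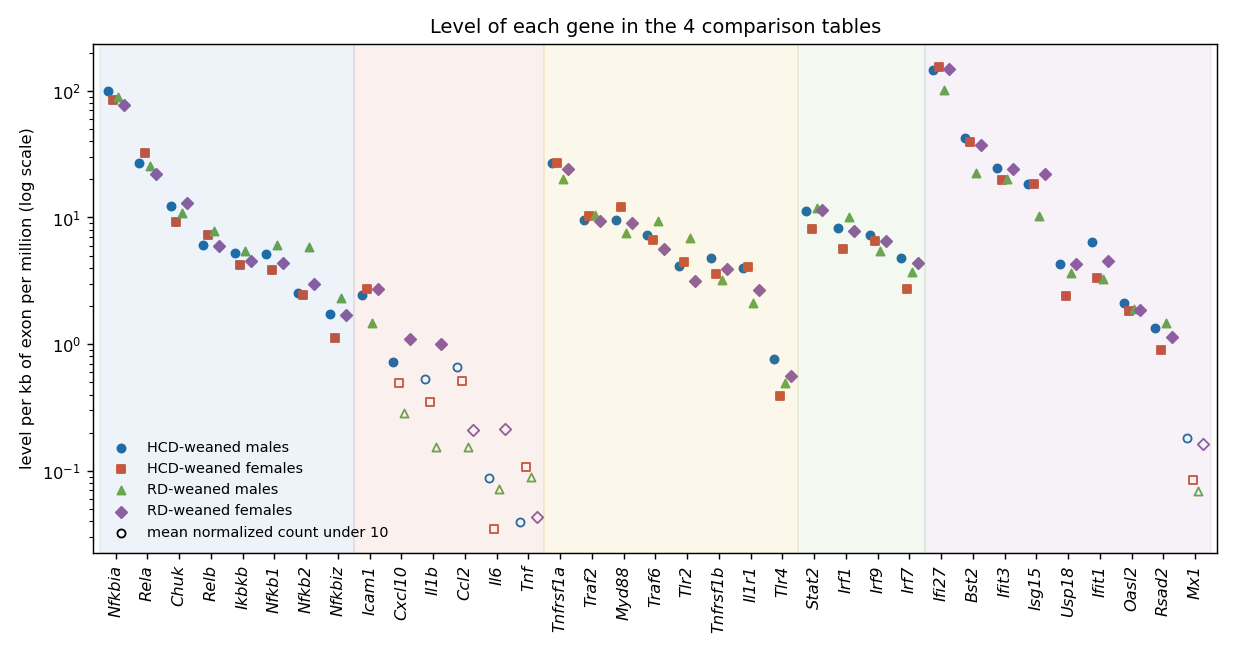
Level per kb of exon, scaled to 1000000 per table, of each of the 35 genes (log scale) in each of the 4 comparison tables, both maternal groups together, with shading by role. Open symbols mark a mean normalized count under 10, which all 4 symbols of Tnf, Il6, Ccl2 and Mx1 have.

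The highest level per kb belonged to Ifi27, an interferon-induced gene, with 102 to 154 over the 4 tables. Nfkbia, which encodes the inhibitor IkB-alpha and is itself a target of NF-kB, followed with 77.0 to 99.6, and the ranges of the pair do not overlap. Bst2, which encodes the virus-tethering protein tetherin, spanned 22.4 to 42.3 and overlapped Rela, at 21.9 to 32.5, and Tnfrsf1a, at 20.1 to 27.1. At the other end stood the secreted ligands, with 0.04 to 0.11 for Tnf, 0.03 to 0.22 for Il6 and 0.15 to 0.67 for Ccl2. Transcripts of the cytokines themselves were near the floor of these tables, whereas the receptors, kinases and transcription factors were measured above it, Tlr4 being the lowest of them at 0.39 to 0.77.

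Promoter sequences were searched for strings of letters that stand for the elements the named factors bind. RefSeq sequences of the 250 bases before the transcription start (build GRCm38.p6) were matched by symbol for 26 of the 35 genes. The interferon-stimulated response element, searched as GAAANNGAAA on both strands, occurred in front of 9 of the 26, against 3.46% of the 27025 genes of the table. These 9 were Bst2, Cxcl10, Ifit1, Ifit3, Isg15, Myd88, Rsad2, Stat2 and Tnfrsf1b, and 5 of the 6 interferon-induced genes with a sequence were among them. The kB element, searched as GGGANNTTCC on both strands, occurred in front of 4 of the 26 (Cxcl10, Il6, Nfkb2 and Nfkbia), against 1.36% of all genes. A match is a string of letters and does not show binding, and a gene without a match may carry the element in another form or elsewhere. Bases after the start were found in a transcript of the gene for 29 of 31 sequences, but not for the Stat2 sequence with the match. The interferon-induced genes are shown with 30-base windows because their values are compared below, each read 5′ to 3′ on the strand of the gene with the match in capitals.
Isg15, chr4:156200871-156200900, minus strand: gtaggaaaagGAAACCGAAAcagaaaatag
Ifit1, chr19:34640794-34640823, plus strand: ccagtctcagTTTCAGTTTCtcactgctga
Ifit3, chr19:34583397-34583426, plus strand: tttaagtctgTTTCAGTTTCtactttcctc
Rsad2, chr12:26456553-26456582, minus strand: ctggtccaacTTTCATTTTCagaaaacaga
Bst2, chr8:71537577-71537606, minus strand: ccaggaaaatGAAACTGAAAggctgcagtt
The Bst2 match overlaps another one that starts 6 bases upstream. Isg15 has overlapping matches that start at -78, -72 and -66 from the transcription start, of which the middle one is in capitals. Ifit1 has a further match at -104 and Ifit3 at -156. The kB match of Nfkbia is shown with that of Il6, because the genes lie near the top and the bottom of the levels.
Nfkbia, chr12:55492657-55492686, minus strand: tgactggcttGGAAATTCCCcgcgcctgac
Il6, chr5:30013060-30013089, plus strand: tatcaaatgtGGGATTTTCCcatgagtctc

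The NF-kB subunits, their inhibitors and the IkB kinase subunits were all tested in the 4 comparisons, and 0 of 8 passed in each. Their median log2 fold change was 0.07 in HCD-weaned sons, 0.13 in HCD-weaned daughters, 0.05 in RD-weaned sons and -0.05 in RD-weaned daughters, from the authors' deposited tables. Nfkb1, the gene of the p50 precursor, stood at 0.06 ± 0.27 (SE) in HCD-weaned sons and 0.11 ± 0.44 in HCD-weaned daughters in the authors' deposited tables. In RD-weaned sons it stood at 0.12 ± 0.43 and in RD-weaned daughters at -0.28 ± 0.24. Its mean normalized count was 503, 341, 334 and 391 in the 4 tables in that order.

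Rela, which encodes the transactivating subunit p65, had log2 fold changes of 0.08 ± 0.26 (SE) in HCD-weaned sons, 0.05 ± 0.31 in HCD-weaned daughters, 0.00 ± 0.41 in RD-weaned sons and 0.24 ± 0.25 in RD-weaned daughters in the authors' deposited tables. Relb and Nfkb2, partners in the noncanonical pathway, ranged from -0.22 to 0.28 and from -0.36 to 0.25 over the deposited tables, with both signs each. The kinase subunit genes Ikbkb and Chuk spanned -0.03 to 0.23 and -0.30 to 0.31 in the authors' deposited tables, again with both signs.

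Nfkbia was positive in all 4 comparisons and passed in none of them. Its log2 fold change was 0.30 ± 0.26 (SE; adjusted p = 0.781) in HCD-weaned sons and 0.23 ± 0.30 (adjusted p = 0.884) in HCD-weaned daughters in the authors' deposited DESeq tables. It was 0.48 ± 0.40 in RD-weaned sons, the most positive Wald statistic of the set there, and 0.15 ± 0.21 in RD-weaned daughters. The mean normalized count behind these was 1308, 986, 659 and 916 in the deposited tables, in the same order of comparisons. Nfkbiz, an inducible nuclear IkB protein gene, was negative in all 4 deposited tables, from -0.21 to -0.09.

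Ligands of the pathway could mostly not be compared. Tnf had a mean normalized count of 0.531, 1.28, 0.669 and 0.523 in HCD-weaned sons, HCD-weaned daughters, RD-weaned sons and RD-weaned daughters in the authors' deposited tables. Il6 stood at 1.75, 0.611, 0.804 and 3.86 in the same order, and Ccl2, a chemokine gene that draws monocytes, at 6.18, 4.25, 0.804 and 1.78. These means lie under 10, so the deposited tables carry a fold change and no adjusted p. Their small standard errors, such as 0.10 for Tnf in HCD-weaned sons, go with small counts in these tables and do not measure precision, as described further on. Il1b was tested in RD-weaned daughters alone, at a mean of 14.1, with 0.10 ± 0.21 (SE) in the authors' deposited table.

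Cxcl10, an interferon- and NF-kB-induced chemokine gene, had the smallest unadjusted p of the set. In RD-weaned daughters its log2 fold change was -0.58 ± 0.27 (SE), a ratio of 0.670, with p = 0.0352 before and 0.728 after adjustment in the authors' deposited DESeq table. The mean normalized count behind it was 18.3, close to the threshold for testing. In HCD-weaned sons it stood at -0.13 ± 0.31 (adjusted p = 0.933, from the authors' deposited table), while in the remaining tables it was too low to be tested. Its promoter is shown whole, since it was the one gene of the 26 with a sequence whose window matched both searched strings. The matches are in capitals, first that of the response element and then that of the kB element, and other forms were not searched.
Cxcl10, chr5:92348890-92349139, minus strand: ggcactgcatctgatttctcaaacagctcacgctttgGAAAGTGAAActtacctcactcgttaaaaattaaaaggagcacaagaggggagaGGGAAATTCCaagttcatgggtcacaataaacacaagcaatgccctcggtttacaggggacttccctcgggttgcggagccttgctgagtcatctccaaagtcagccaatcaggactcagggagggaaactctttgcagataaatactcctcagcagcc
Icam1, an adhesion gene of activated endothelium, had means of 86.7, 87.0, 29.5 and 87.4 in the deposited tables. It stood at -0.24 ± 0.31 in HCD-weaned sons, -0.56 ± 0.45 in HCD-weaned daughters, 0.39 ± 0.36 in RD-weaned sons and -0.29 ± 0.30 in RD-weaned daughters (SE) in the authors' deposited tables, with 0 calls.

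Among receptors and adaptors 0 genes passed, of 8 tested in 3 comparisons and 6 in RD-weaned sons. Il1r1, the signalling receptor of interleukin-1, had the most negative Wald statistic of the set in both HCD-weaned sexes. It stood at -0.35 ± 0.28 (SE; adjusted p = 0.759) for HCD-weaned sons and -0.68 ± 0.44 (adjusted p = 0.562) in HCD-weaned daughters in the authors' deposited DESeq tables. In RD-weaned offspring it was positive, 0.31 ± 0.38 in males and 0.09 ± 0.29 in females in the deposited tables. Tnfrsf1a, the widely expressed tumour necrosis factor receptor gene, ranged only from -0.14 to 0.20 over the authors' deposited tables, at means of 238 to 572.

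Tlr4, the receptor of bacterial endotoxin, was low, with means of 34.7, 15.8, 12.5 and 23.0 in HCD-weaned sons, HCD-weaned daughters, RD-weaned sons and RD-weaned daughters in the authors' deposited tables. Its log2 fold change was -0.28 ± 0.33 (SE), 0.13 ± 0.33, 0.40 ± 0.35 and 0.33 ± 0.22 in that order in the deposited tables, with an unadjusted p of 0.125 at the least. Tlr2 stood at -0.45 ± 0.39 in RD-weaned sons, the second most negative Wald statistic of the set there, and between -0.18 and 0.15 elsewhere in the deposited tables. Myd88, the adaptor shared by most Toll-like receptors and the interleukin-1 receptor, ranged from -0.47 ± 0.43 in HCD-weaned daughters to 0.17 ± 0.28 in HCD-weaned sons in the deposited tables. Traf6, the ubiquitin ligase that links these adaptors to the IkB kinase, was negative in all 4, at -0.32 ± 0.27, -0.45 ± 0.34, -0.37 ± 0.37 and -0.03 ± 0.27 in the order above in the authors' deposited tables. For Traf2 and Tnfrsf1b the deposited table of RD-weaned sons gives a fold change (-0.40 and 0.12) without a p.

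The transcription factors of the interferon response held 0 calls among 4 tested in each comparison. Stat2 was negative in all 4 deposited tables, at -0.17 ± 0.27, -0.06 ± 0.42, -0.26 ± 0.27 and -0.29 ± 0.23 (SE) in HCD-weaned sons, HCD-weaned daughters, RD-weaned sons and RD-weaned daughters. Irf9, its partner in DNA binding, lay between -0.17 and 0.11 in the authors' deposited tables, and Irf7, the amplifier of interferon production, between -0.15 and 0.18. Irf1 was the gene of the set furthest from 0 by fold change in any table. It stood at -0.70 ± 0.42 (SE; unadjusted p = 0.0958) in RD-weaned sons, and at 0.23 ± 0.27, 0.34 ± 0.41 and 0.17 ± 0.28 in HCD-weaned sons, HCD-weaned daughters and RD-weaned daughters in the authors' deposited DESeq tables.

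The interferon-induced genes held both signs in each comparison, unevenly in daughters, and 0 of them passed. Of the 9, Mx1 was too low to be tested, and Ifit1 and Oasl2 have no p in the deposited table of RD-weaned sons. Tested genes above and below 0 numbered 5 and 3 in HCD-weaned sons, 7 and 1 in HCD-weaned daughters, 3 and 3 in RD-weaned sons and 2 and 6 in RD-weaned daughters. Their median log2 fold change was 0.08, 0.24, -0.07 and -0.08 in that order, from the authors' deposited tables. Over all tested genes those above and below 0 numbered 7518 and 7866, 8188 and 6855, 6462 and 6458, and 7646 and 7382 in the same order.

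Bst2 was the most positive of them in the RD-weaned daughters and among the 2 most positive genes of the set in both HCD-weaned sexes, without passing. It stood at 0.41 ± 0.28 (SE; adjusted p = 0.719) for HCD-weaned sons, 0.45 ± 0.42 (0.776) in HCD-weaned daughters, 0.37 ± 0.45 (1.00) in RD-weaned sons and 0.51 ± 0.27 (0.859) in RD-weaned daughters in the authors' deposited DESeq tables. As ratios these are 1.33, 1.36, 1.29 and 1.42. Ifi27 was likewise positive in all 4, at 0.41 ± 0.27, 0.37 ± 0.31, 0.25 ± 0.44 and 0.23 ± 0.26 in the authors' deposited tables. These were the most abundant pair of interferon-induced genes per kb, with mean normalized counts of 311 and 1744 in the table of HCD-weaned sons.

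The remaining interferon-induced genes lay on both sides of 0. Ifit3, of the interferon-induced tetratricopeptide family that binds foreign RNA, stood at -0.34 ± 0.27 (SE) in HCD-weaned sons, 0.23 ± 0.38 in HCD-weaned daughters, -0.17 ± 0.41 in RD-weaned sons and -0.26 ± 0.28 in RD-weaned daughters in the authors' deposited tables. It has a near-identical neighbour, Ifit3b, so the split of reads between them is uncertain. Ifit1 followed it in sign where tested, at -0.27 ± 0.29, 0.21 ± 0.40 and -0.37 ± 0.30 in HCD-weaned sons, HCD-weaned daughters and RD-weaned daughters in the deposited tables. Isg15, the ubiquitin-like modifier, lay between -0.08 and 0.19 in the authors' deposited tables, and Usp18, the protease that removes it, between -0.25 and 0.33. Rsad2, which encodes viperin, ranged from -0.18 to 0.26 in the deposited tables at means of 28.3 to 47.1. Oasl2 was at or below 0 in each table, from -0.45 ± 0.44 in HCD-weaned daughters to -0.01 ± 0.32 in RD-weaned sons in the authors' deposited tables.

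The 4 comparisons share no sample, so a sign repeated over all 4 can be counted. Of the 25 genes of the set tested in each, 3 were positive in all 4 (Nfkbia, Ifi27 and Bst2) and 3 were negative in all 4 (Nfkbiz, Traf6 and Stat2), together 24.0%. Over the 12604 genes tested in all 4 deposited tables the share was 24.5%. The share in the set was near that of all genes. With the trend of the statistic with gene length removed, Stat2 in HCD-weaned daughters and Traf6 in RD-weaned daughters turned positive. The count also rests on the direction read for the tables, and only those of RD-weaned offspring were turned. With the signs of RD-weaned sons turned, 3 of the 25 genes had a common sign, against 23.4% of all genes, and with RD-weaned daughters turned 2 of 25, against 12.01%. With both turned it was 5 of 25, against 13.8%, and the genes were then Nfkb2, Usp18 and Rsad2 (positive) and Il1r1 and Irf9 (negative).

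Whether the maternal diet acted differently by sex or by weaning diet was tested as the difference of 2 log2 fold changes of the authors' deposited tables, adjusted over all genes. For HCD-weaned sons minus HCD-weaned daughters 0 of 29 genes of the set were called, against a background of 0.00% of 14947 genes, and for RD-weaned sons minus RD-weaned daughters 0 of 25, against 0.00791%. For HCD-weaned minus RD-weaned sons 0 of 25 were called, against 0.00775%, and for HCD-weaned minus RD-weaned daughters 0 of 29, against 0.00685%. Irf1 came closest, with a difference of 0.94 ± 0.50 (SE, adjusted p = 0.978) between HCD-weaned and RD-weaned sons, from the fold changes of the authors' deposited DESeq tables. Its 95% interval ran from -0.05 to 1.93. This value needs the direction read for both groups of sons, and with the sign for RD-weaned sons turned it would be -0.47 ± 0.50. In that difference Nfkbia would then come closest, with a difference of 0.78 ± 0.48 (SE, adjusted p = 0.980) from the authors' deposited DESeq tables. Turning the second table in the 3 differences with RD-weaned offspring left 0 genes of the set called, with Bst2 lowest in adjusted p at 0.361, in HCD-weaned minus RD-weaned daughters, where 1.27% of all genes were then called. The closest in HCD-weaned sons minus HCD-weaned daughters was Myd88, with a difference of 0.64 and a 95% interval from -0.36 to 1.64, from the same tables. At an unadjusted p under 0.05 the set held 0 genes in each of the 4 differences. Among all genes 0.642%, 3.05%, 3.84% and 5.00% had such a p in the differences in the order given. The difference test takes the fold changes as deposited, which have the look of shrunken values, and wide intervals such as these do not show that the sexes or diets were alike.

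The intervals show how large a change the tables leave room for. The 95% interval, a normal interval built on the SE of the authors' deposited table, lay within 1 and -1 on the log2 scale, a 2-fold change either way, for 30 of 30 tested genes of the set in HCD-weaned sons and 29 of 31 in RD-weaned daughters. It did so for 16 of 29 in HCD-weaned daughters and 13 of 25 in RD-weaned sons. The same held for 83.7%, 92.8%, 60.1% and 56.0% of all tested genes in these tables in the same order. The bound farther from 0 had a median of 0.74 in HCD-weaned sons, a 1.67-fold change, and 0.72 in RD-weaned daughters, a 1.64-fold change. In HCD-weaned daughters it was 0.98 (1.97-fold) and in RD-weaned sons 0.99 (1.99-fold).

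Ikbkb was the most tightly bounded gene of the set in HCD-weaned sons, within a 1.45-fold change, and in RD-weaned daughters, within a 1.31-fold change, by the intervals of the authors' deposited tables. In HCD-weaned daughters it was Rela, within 1.58-fold, and in RD-weaned sons Stat2, within 1.74-fold. The widest bounds belonged to Bst2 in HCD-weaned sons (1.93-fold), Il1r1 in HCD-weaned daughters (2.93-fold), Irf1 in RD-weaned sons (2.90-fold) and Cxcl10 in RD-weaned daughters (2.17-fold). Of the 25 genes tested in every comparison, 10 had intervals within a 2-fold change in all 4 tables.

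**Figure D3:**
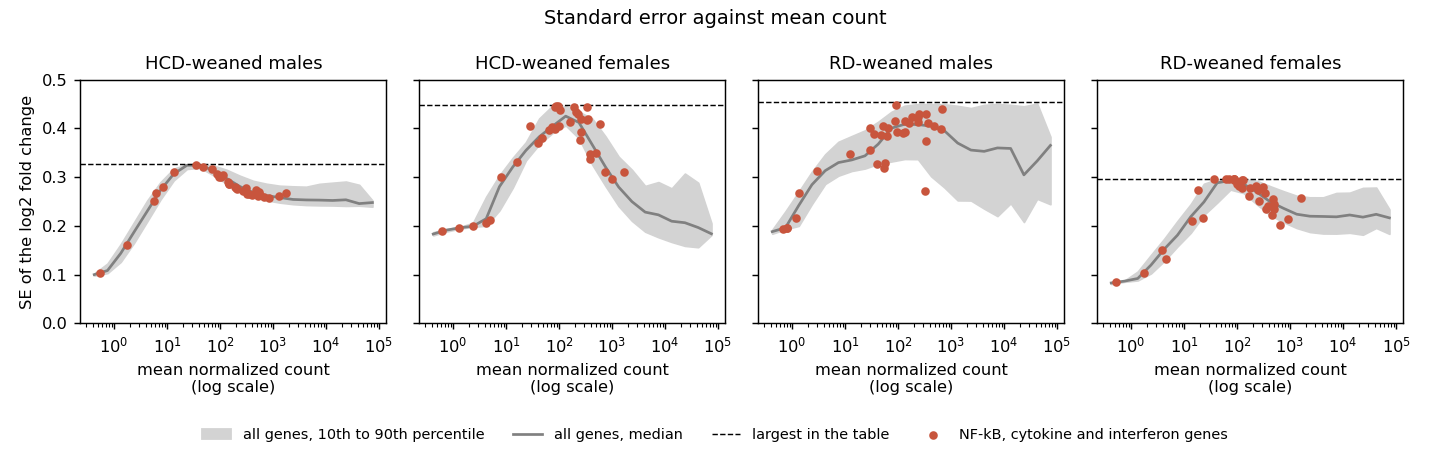
SE of the log2 fold change against mean normalized count (log scale) in the authors' deposited tables, for the 35 genes (points) and for all genes (median line, band from the 10th to the 90th percentile). The dashed line is the largest SE of each table, 0.33, 0.45, 0.45 and 0.30 from left to right, and the SE falls on both sides of a peak.

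These intervals may be narrower than the counts alone would give. The SE had a ceiling in each deposited table and fell toward low counts, with a median of 0.14 under a mean normalized count of 10, 0.31 from 10 to 300 and 0.26 from 1000 up in HCD-weaned sons. A normal prior that shrinks fold changes toward 0 gives such a shape, with a ceiling at which data and prior weigh the same. Among tested genes of the set, 10 of 30 in HCD-weaned sons, 16 of 29 in HCD-weaned daughters, 10 of 25 in RD-weaned sons and 18 of 31 in RD-weaned daughters had an SE above 90% of the ceiling in the authors' deposited tables. Undoing such a prior in the way that gives the narrowest interval, an alternative chosen after the data were seen, left at most 14 of 30, 3 of 29, 1 of 25 and 15 of 31 genes within a 2-fold change in that order. The median bound became at least 2.05-fold, 2.66-fold, 2.55-fold and 2.09-fold. With the shrinkage undone, 0 of the 25 genes tested in every comparison stayed within a 2-fold change in all 4 tables, and the widest bounds were 3.32-fold for Tlr4 in HCD-weaned sons, 6.84-fold for Il1r1 in HCD-weaned daughters, 4.77-fold for Irf1 in RD-weaned sons and 3.52-fold for Ifit1 in RD-weaned daughters. Undoing shrinkage in this way leaves the ratio of fold change to SE, and so the p-value, unchanged by construction. No fit without a prior was run.

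Further genes of the pathways were listed by function. Of 131 such genes in the deposited tables, 0 passed in any comparison, among 121 tested in HCD-weaned sons, 115 in HCD-weaned daughters, 96 in RD-weaned sons and 116 in RD-weaned daughters. An unadjusted p under 0.05 in the authors' deposited tables was held by 5, 4, 2 and 4 of them in that order. These are 4.13%, 3.48%, 2.08% and 3.45% of those tested, below the 8.14%, 13.3%, 4.30% and 6.16% of all tested genes. These genes are named here after their values were seen. In HCD-weaned sons they were Samd9l, Ifi27l2a and Herc6 among the interferon-induced genes, all negative, with Ifitm3 (positive) and the interleukin-1 receptor kinase gene Irak1 (negative). In HCD-weaned daughters they were Irak1, Ifit2 and Tgfbr2 (negative) and the inhibitor gene Nfkbib (positive).

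Irak1, whose kinase acts between Myd88 and Traf6, had the lowest p of the wider list. It stood at -0.53 ± 0.25 (SE; adjusted p = 0.572) for HCD-weaned sons and -0.82 ± 0.28 (adjusted p = 0.105) in HCD-weaned daughters in the authors' deposited DESeq tables. In RD-weaned offspring Traf3, an adaptor that restrains noncanonical NF-kB signalling, was negative in both sexes, -0.66 ± 0.32 in males and -0.52 ± 0.23 in females, with the interferon receptor gene Ifnar1 also negative in males in the deposited tables. In RD-weaned daughters Adar was negative too, and the chemokine gene Cx3cl1 (0.51 ± 0.21) and Csf1r (0.36 ± 0.18) were positive in the authors' deposited table. The medians of the 3 further lists lay between -0.17 and 0.13 in the 4 comparisons. The lowest was that of cytokines, chemokines and receptors in HCD-weaned sons, with 8 genes above and 29 below 0. Among all tested genes of that comparison 7518 lay above and 7866 below 0.

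**Figure D4:**
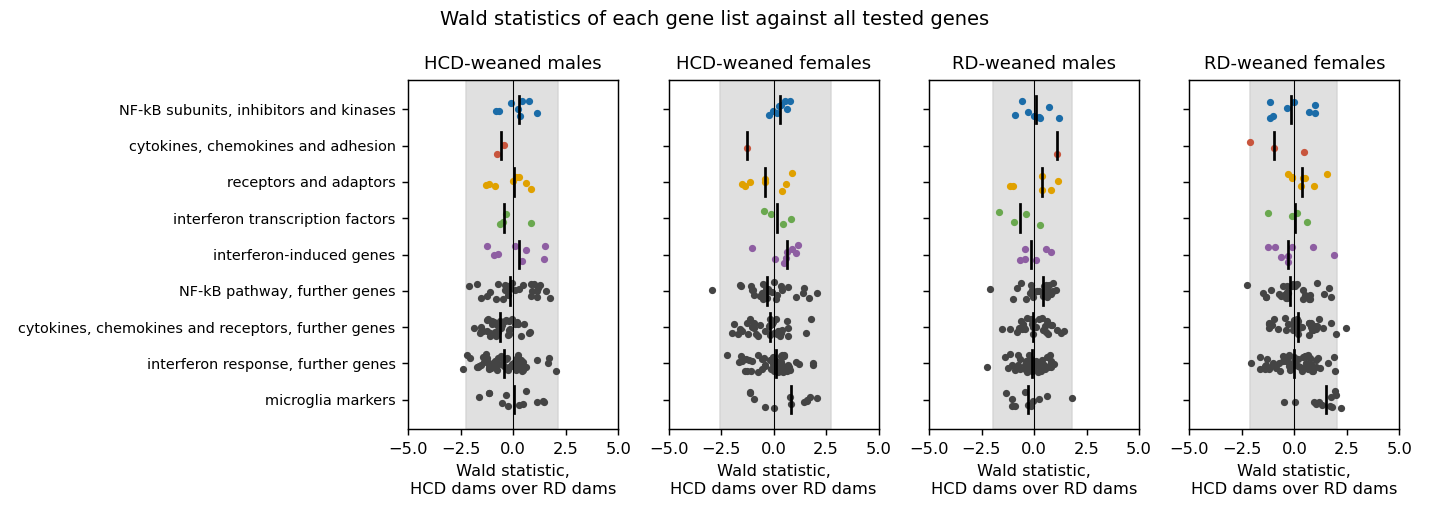
Wald statistic of each tested gene (points) by role and list in the 4 comparisons, offspring of HCD dams over offspring of RD dams, from the authors' deposited tables. Black bars are medians and the grey band holds 95% of all tested genes of that table, from -2.26 to 2.12 in HCD-weaned sons, and the points of the 5 role groups lie inside it in all 4 panels.

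Markers of microglia, the resident macrophages that express many of these receptors and cytokines, are given beside them. Of 12 markers 0 were called in any comparison, and all were expressed, with a lowest mean normalized count of 196 in the authors' deposited tables. In RD-weaned daughters 11 of 12 were positive with a median log2 fold change of 0.33, where 7646 of all 15028 tested genes were positive. In RD-weaned sons 8 of the 11 tested were negative. The median was 0.01 in HCD-weaned sons, 0.25 in HCD-weaned daughters and -0.14 in RD-weaned sons. Summed over the 12 markers the mean normalized count was 21804, 18958, 10425 and 19865 in HCD-weaned sons, HCD-weaned daughters, RD-weaned sons and RD-weaned daughters. All genes together summed to 26951335, 22739667, 15402649 and 23564269 in the same order. The tables were normalized separately and differ in this total, so the marker sums do not compare amounts of these cells between tables. Of the markers of T cells, neutrophils and monocytes 6 occur in the tables, with 0 called and a summed mean of 121, 144, 19.3 and 52.0 in that order of comparisons. The same limit holds for these sums. The T cell gene Cd3e had means of 0.342 to 1.92 in the authors' deposited tables, while the neutrophil gene S100a9 had 10.3 to 68.1, with 0.47 ± 0.22 (SE; unadjusted p = 0.0300) in RD-weaned daughters in the authors' deposited DESeq table. Of 7 astrocyte markers 1 was called in HCD-weaned daughters, negative, with adjusted p = 0.0229 in the authors' deposited DESeq table, against 1.52% of all tested genes. There 3 were positive and 4 negative, with a median of -0.26. In HCD-weaned sons, RD-weaned sons and RD-weaned daughters 0 were called, with medians of 0.21, -0.32 and -0.20. Markers of endothelial cells and perivascular macrophages held 0 calls in each comparison. The part of these cells in the values of the set was not tested.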

How the data were processed

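Stranded mRNA libraries of 25 hypothalamus samples in 8 groups were sequenced, per the labels' protocols. DESeq (no version) and build mm10 stand in the submitters' processing notes. The aligner, the counter and the gene models used are not stated there. From each of the 4 deposited tables the following were taken as the authors give them: the mean normalized count (a signal), the log2 fold change and its SE, the Wald statistic (a score), and p-values raw and adjusted. Counts and regularized log values in 8 further files hold 48 columns of single libraries that match no label and were not used, so depth per sample is not given. The mean normalized counts sum to between 15402649 and 26951335 per table.

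The differences, Benjamini-Hochberg adjustment (over genes that both tables tested) and 95% intervals were computed in Python 3.11.15 with scipy 1.17.1. The adjusted differences, the undoing of shrinkage and the removal of the length trend were tried on simulated data, but the intervals were not. The simulated differences were normal values without shrinkage, so they do not vouch for the test on fold changes that may be shrunken. Exon lengths are unions over GENCODE M21, found for 95.7% of genes and 35 of 35 members. The members, lists and tests were chosen with earlier results of these data known. Genes were named by rule: core members, members with an unadjusted p under 0.05 and the 3 most positive and negative Wald statistics per comparison. Alternatives were an adjusted p under 0.10, other gene sets for the adjustment, a rescaled statistic, centred fold changes, removal of the length trend, 99% intervals and, added later, shrinkage undone and the signs of RD-weaned tables turned.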

Additional observations from a re-analysis of the deposited data

How the results depend on the processing

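The count of called genes of the set stayed at 0 in all 4 comparisons and all 4 differences under each alternative run, which were an adjusted p under 0.10, a statistic divided by its robust spread, centred fold changes and, for the comparisons, adjustment over every gene with a p or over genes whose mean reached 100 and removal of the trend with length. The smallest adjusted p of a member over these was 0.469. It was 0.361 with the sign of an RD-weaned table turned in the differences, an alternative chosen after seeing the data that also called 0. The count of intervals within a 2-fold change moved by more than 1.5 times with shrinkage undone, to 14 in HCD-weaned sons, 3 in HCD-weaned daughters, 1 in RD-weaned sons and 15 in RD-weaned daughters, and with 99% intervals to 3 in HCD-weaned daughters and 1 in RD-weaned sons. Of 230 statistics of single genes recomputed with centring or without the length trend, the alternatives that can turn a sign, 13 changed sign, all of them of genes without a call. Removing the length trend did so in HCD-weaned sons for Rela (-0.0150), Ikbkb (1.43), Tnfrsf1a (-0.363), Tlr2 (-0.0191), Isg15 (-0.190) and Usp18 (-0.00274), in HCD-weaned daughters for Rela (-0.252), Stat2 (0.0118) and Isg15 (-0.572), and in RD-weaned daughters for Ikbkb (0.680) and Traf6 (0.138), each given as a Wald statistic. Stat2 and Traf6 were then not negative in all 4 comparisons. Centring did so for Tnfrsf1b in HCD-weaned sons (0.0151) and Isg15 in HCD-weaned daughters (-0.0207). The cause was not tested. Leaving out replicates and a count test with another normalization were not run, since no library column could be mapped. No paired analysis was possible because the columns of single libraries carry no sample or replicate number that a label explains.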
